A study of Homo sapiens with 18 samples.

Results

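Translation initiation factors are the proteins that bring the small ribosomal subunit, the initiator tRNA and the mRNA together at the start codon. The 42 genes described here encode the subunits of eIF2, eIF2B, eIF3 and eIF4, the factors that select the start codon and join the large subunit, eIF5A and eIF6. They were taken by gene symbol from the 60483 gene identifiers of the deposited tables, and all 42 were among the 16122 genes with enough reads to test. Their RNA was counted in HAIR-M, a human cell line of marginal zone lymphoma, a cancer of B cells. Cultures received the solvent DMSO or 5 nM copanlisib, an inhibitor of phosphoinositide 3-kinase (PI3K), for 4, 8 or 12 h, with 3 libraries in each of the 6 groups. The labels name no genetic change, and all groups are the same line, so a difference describes this line. Nothing in the labels says that the replicates were separate cultures. The p-values therefore reflect the spread among the deposited libraries, which may be technical.

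Initiation begins when eIF2, carrying GTP and the initiator tRNA, joins eIF1, eIF1A, eIF3 and eIF5 on the small subunit. The eIF4F complex, made of the cap-binding protein eIF4E, the scaffold eIF4G and the helicase eIF4A, then brings the mRNA, and eIF2B recharges spent eIF2 with GTP. PI3K acts through AKT and mTORC1 on this machinery mainly at the protein level, where mTORC1 phosphorylates the 4E-BP proteins that otherwise hold eIF4E, and a count of RNA does not measure that step.

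Libraries held 13587017 to 25566761 reads assigned to genes. Copanlisib replicates 1 and 2 of 4 h differed from the remaining 16 libraries. Unmapped reads made up 8.73% and 5.22% of them, against 1.74% to 2.82%, and their mitochondrial share of gene reads was 12.4% and 12.6%, against 9.07% to 10.5%. When genes were split by GC content into 5 equal classes, the median log2 fold change at 4 h was 0.12 in the class of lowest GC and -0.21 in that of highest GC. Without those libraries, so that copanlisib was represented by replicate 3, the medians were -0.035 and 0.0029. The 4 h results are therefore also given with replicate 3 alone. That fit has 1 copanlisib library at 4 h, which is assumed to vary like the libraries of the other groups, and its p-values rest on this. The summed level of 6 B cell markers was 1355 to 1997 CPM (reads of a gene per 1000000 gene reads, scaled between libraries). It was 1355 to 1382 CPM in DMSO and 1424 to 1498 CPM with copanlisib at 4 h. At 8 h it was 1445 to 1485 against 1639 to 1676 CPM, and at 12 h 1638 to 1651 against 1949 to 1997 CPM. The markers did not all move with this sum: at 8 h CD22 measured 471, 471 and 461 CPM in DMSO and 436, 438 and 445 CPM with copanlisib. The sum was 5.75 to 10.5 CPM for 7 retina markers (RPE65 had no read), a tissue that the labels' extraction text names. The T and NK cell list (6 markers) summed to 7.36 to 17.02 CPM, with CD3D and CD3G at 0. The myeloid list (5 markers) summed to 4.37 to 9.69 CPM. The list of 6 stroma and epithelium markers summed to 49.0 to 60.3 CPM in DMSO, and with copanlisib to 53.3 to 65.1 CPM at 4 h and 73.1 to 76.1 CPM at 8 and 12 h. The part of the B cell and stroma lists in the results was not tested. In these bulk libraries, fewer cells and less RNA per cell cannot be told apart.

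More initiation factors were lower than higher after copanlisib at each time. Of the 42 transcripts, 21 fell and 5 rose at 4 h, 26 fell and 1 rose at 8 h, and 21 fell and 4 rose at 12 h (edgeR quasi-likelihood test, adjusted p under 0.05 over all genes tested). At 4 h this is 61.9% changed and 50% lower, beside 38.4% of all genes tested that changed, 20.7% that were lower and 17.7% that were higher. At 8 h it is 64.3% changed and 61.9% lower, beside 33.1% changed, 18.3% lower and 14.8% higher of all genes. At 12 h it is 59.5% changed and 50% lower, beside 30.3% changed, 16.5% lower and 13.8% higher of all genes. Read by library, 22 members lay lower in all 3 copanlisib libraries than in all 3 DMSO libraries at 4 h and 4 lay higher, beside 19.9% and 19% of all genes. The same held for 30 lower and 3 higher members at 8 h, beside 26.2% and 24.5% of all genes, and for 27 lower and 5 higher members at 12 h, beside 24.1% and 21.9%. The changes were small: the median log2 fold change of the 42 was -0.14, -0.18 and -0.13 at 4, 8 and 12 h, beside 0.0095, 0.015 and 0.0044 over all genes tested.

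A group of 14 members fell at all 3 times, 33.3% of the 42 beside 8.32% of all genes tested. They are EIF2S1 and EIF2S2 of eIF2, EIF2B1, EIF2B2 and EIF2B3 of eIF2B, EIF3B, EIF3J and EIF3M of eIF3, EIF4A1, EIF4A3, EIF4E, EIF4G1 and EIF4G3 of the eIF4 group, and EIF5A. EIF4E3 was the only member that rose at all 3 times, which is 2.38% beside 4.99% of all genes tested. Another 6 members passed the test at no time: EIF1B, EIF2D, EIF3H, EIF3K, EIF4E2 and EIF5A2. With copanlisib replicate 3 alone at 4 h, 19 members fell and 0 rose, beside 13.4% of the genes in that fit that fell and 8.86% that rose. Of the 14, 13 were also lower there, the exception being EIF2B3 at -0.23 (adjusted p = 0.0844). In the fit of only the 4 h libraries, the 4 h calls of EIF2A, EIF2B1, EIF2B3, EIF2B4, EIF2S2, EIF3C, EIF3E, EIF3L, EIF3M, EIF4B, EIF4G3 and EIF5 were lost (adjusted p = 0.0511 to 0.161). With no filter on low counts, the lost calls were those of EIF2B1, EIF3M and EIF4G3 at 4 h (0.132 to 0.203), of EIF1, EIF2B5, EIF2S3, EIF3I, EIF4A1 and EIF4A2 at 8 h (0.0508 to 0.295), and of EIF2B1, EIF2B2, EIF3D, EIF3G, EIF3M and EIF4A1 at 12 h (0.0738 to 0.174). Counts without strand lost those of EIF2B1, EIF2S2 and EIF4G3 at 4 h (0.0567 to 0.082), of EIF1 and EIF2B5 at 8 h (0.053 and 0.0568), and of EIF2B1, EIF2B2 and EIF3M at 12 h (0.0529 to 0.0698).

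**Figure D1:**
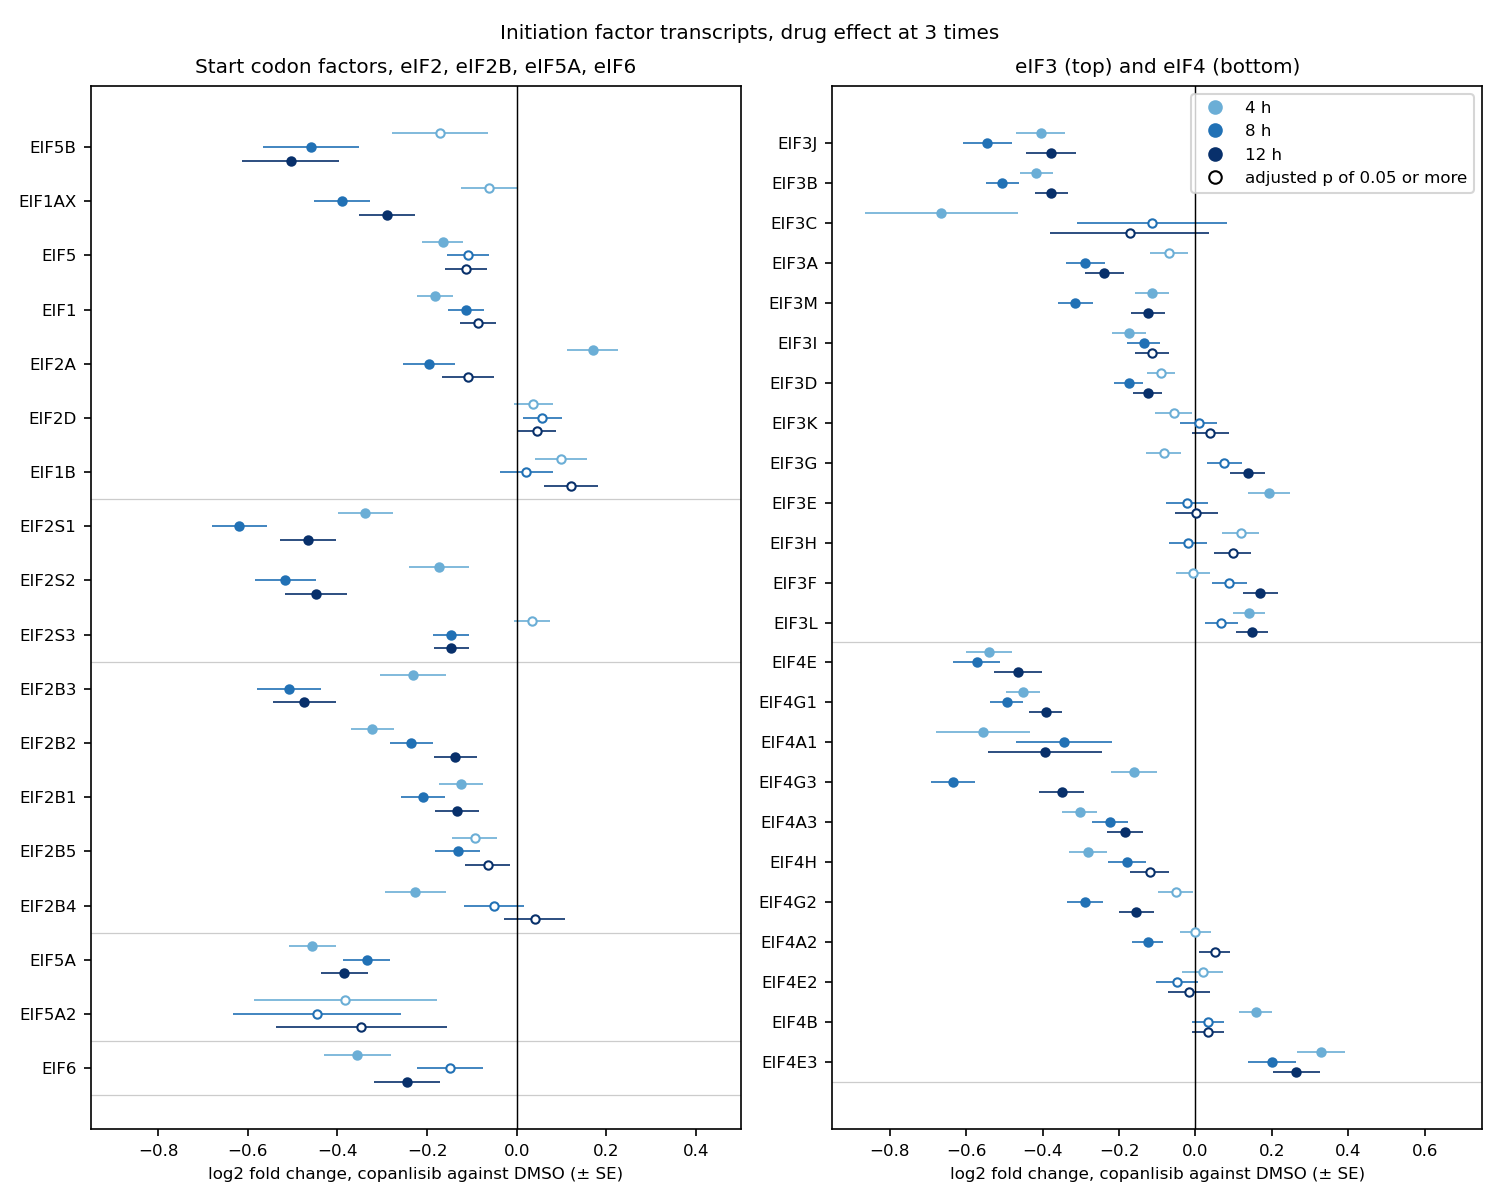
Log2 fold change of copanlisib against DMSO (± SE, edgeR) for each of the 42 transcripts at 4, 8 and 12 h, with 3 libraries a group, grouped by complex. Filled points passed the test, open points did not, and most filled points lie left of 0, with EIF4E3 to the right of it at each time.

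Of the 11 members of the eIF4 group, 6, 8 and 6 fell and 2, 1 and 1 rose at 4, 8 and 12 h. These are 54.5%, 72.7% and 54.5% lower, beside 20.7%, 18.3% and 16.5% of all genes tested. Higher were 18.2%, 9.09% and 9.09%, beside 17.7%, 14.8% and 13.8% of all genes. Of the 3 cap-binding genes, EIF4E fell and EIF4E3 rose at each time, while EIF4E2 passed the test at none. EIF4E (chr4:98871684-98930637, GRCh38), which encodes the cap-binding protein itself, measured 34.8, 35.8 and 36.7 CPM in the DMSO libraries at 4 h and 24.4, 25.3 and 24.1 CPM with copanlisib. It measured 31.6, 30.4 and 31.9 against 20.7, 20.2 and 22.2 CPM at 8 h. At 12 h it measured 33.1, 30.8 and 31.4 against 24.1, 22.1 and 22.8 CPM. Every copanlisib library was below every DMSO library of its time. The log2 fold changes were -0.54 ± 0.0606 SE, -0.57 ± 0.0613 SE and -0.46 ± 0.0621 SE (edgeR adjusted p = 8.9e-08, 4.5e-08 and 1.8e-06), and the 4 h value was -0.57 (adjusted p = 7.09e-07) with copanlisib replicate 3 alone.

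EIF4E2, which encodes a cap-binding relative known for repressing translation of bound mRNAs, measured 105, 94.1 and 103 CPM in DMSO and 103, 108 and 94.6 CPM with copanlisib at 4 h. The values were 96.1, 99.2 and 98.1 against 98.03, 95.4 and 90.4 CPM at 8 h. The 12 h values were 91.2, 85.9 and 94.8 against 92.2, 87.4 and 89.2 CPM. The groups overlapped at each time, with log2 fold changes of 0.019, -0.048 and -0.016 (adjusted p = 0.82, 0.54 and 0.86). EIF4E3 (chr3:71675416-71754773), the third cap-binding gene, measured 36.96, 39.2 and 34.4 CPM in DMSO and 48.5, 48.4 and 41.9 CPM with copanlisib at 4 h. At 8 h it measured 38.8, 41.2 and 39.96 against 44.02, 46.5 and 47.00 CPM, and at 12 h 45.3, 46.4 and 44.7 against 55.5, 54.7 and 53.5 CPM. Here every copanlisib library was above every DMSO library of its time, by 0.33 ± 0.0626, 0.20 ± 0.0616 and 0.26 ± 0.0609 (log2, SE; edgeR adjusted p = 0.00015, 0.013 and 0.0015). The 8 h call was lost without DMSO replicate 1 (adjusted p = 0.0558) or copanlisib replicate 3 (0.0687), and the 4 h value was 0.19 (adjusted p = 0.0663) with copanlisib replicate 3 alone. The reads of EIF4E3 per read of EIF4E, not corrected for length, went from 1.03 ± 0.0845 (SD, n = 3) in DMSO to 1.88 ± 0.127 with copanlisib at 4 h, from 1.28 ± 0.0677 to 2.18 ± 0.103 at 8 h, and from 1.43 ± 0.069 to 2.37 ± 0.0878 at 12 h. The ratio was higher in every copanlisib library than in every DMSO library of its time.

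All 3 scaffold genes fell, EIF4G1 and EIF4G3 at each time and EIF4G2 at 8 and 12 h. Of all genes tested, 20.7%, 18.3% and 16.5% were lower at 4, 8 and 12 h. EIF4G1 (chr3:184314495-184335358), which encodes the main scaffold, measured 496, 494 and 475 CPM in DMSO and 342, 348 and 382 CPM with copanlisib at 4 h. At 8 h the values were 479, 489.6 and 466 against 329, 344 and 346 CPM, and at 12 h 438, 452 and 433 against 345, 336 and 326 CPM. The groups did not overlap at any time, and the log2 fold changes were -0.45 ± 0.0435, -0.49 ± 0.0434 and -0.39 ± 0.0436 (SE; edgeR adjusted p = 6.9e-09, 1.6e-09 and 1e-07). EIF4G2, whose product lacks the eIF4E-binding site and works in cap-independent initiation, measured 852, 883 and 846 CPM in DMSO and 855, 888 and 747 CPM with copanlisib at 4 h, where the groups overlapped. It fell at 8 h, from 884, 915 and 893 to 714, 745 and 744 CPM (log2 fold change -0.29 ± 0.0466 SE, adjusted p = 2.2e-05), and at 12 h, from 803, 775 and 780.4 to 702, 717 and 699.7 CPM (log2 fold change -0.15 ± 0.0467 SE, adjusted p = 0.013). The 12 h call was lost without DMSO replicate 1 (adjusted p = 0.0589). At 4 h its log2 fold change was -0.052 (adjusted p = 0.41), and -0.20 (adjusted p = 0.000809) with the single copanlisib replicate 3. EIF4G3, a scaffold paralog with the same domain layout as EIF4G1, measured 42.9, 42.6 and 41.4 against 38.8, 38.6 and 35.9 CPM at 4 h and 60.7, 69.99 and 62.00 against 40.04, 41.5 and 42.3 CPM at 8 h. After 12 h it measured 61.98, 61.6 and 58.5 against 49.8, 46.4 and 46.6 CPM. It was lower in every copanlisib library, with log2 fold changes of -0.16, -0.64 and -0.35 (edgeR adjusted p = 0.037, 2.8e-09 and 3.8e-05). The 4 h call of EIF4G3 was lost without DMSO replicate 1 (adjusted p = 0.088), DMSO replicate 2 (0.102), DMSO replicate 3 (0.0559) or copanlisib replicate 3 (0.0799).

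**Figure D2:**
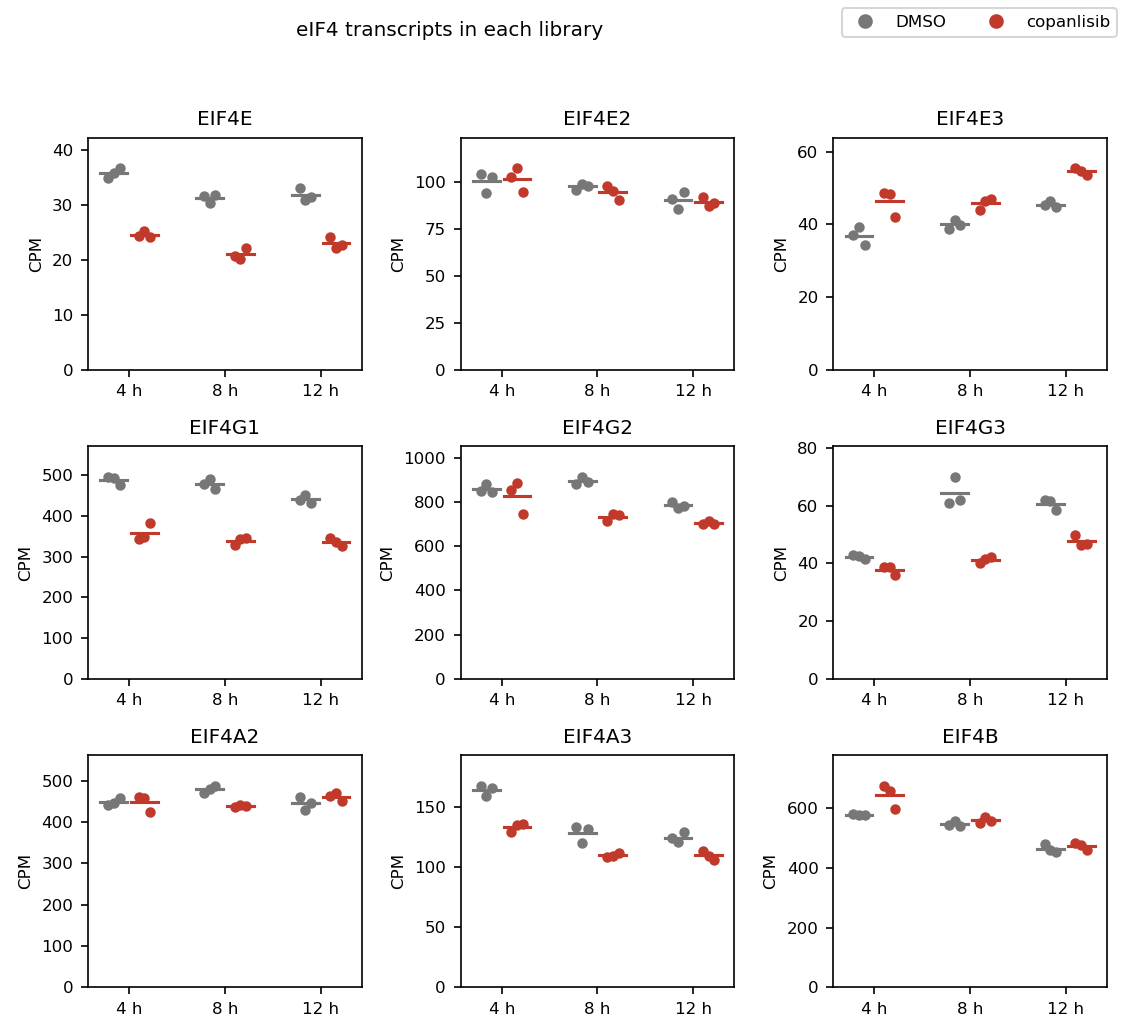
CPM of 9 eIF4 transcripts in each of the 18 libraries, with a bar at the mean of each group of 3 (grey DMSO, red copanlisib). EIF4E, EIF4G1, EIF4G3 and EIF4A3 lie lower in every copanlisib library than in every DMSO library of the same time, EIF4E3 lies higher, and EIF4E2 overlaps.

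Among the helicases and their helpers, EIF4A2, a helicase subunit of eIF4F, measured 441, 445 and 457 CPM in DMSO against 459.6, 459 and 424 CPM with copanlisib at 4 h, and 461, 429 and 447 against 463, 469.96 and 452 CPM at 12 h, with overlap at both times. At 8 h it fell from 470.3, 479.5 and 488 to 437, 442 and 439 CPM (log2 fold change -0.13 ± 0.0403 SE, adjusted p = 0.018), a call lost without DMSO replicate 3 (adjusted p = 0.0741) or copanlisib replicate 1 (0.057). EIF4A3, the helicase of the exon junction complex, which marks spliced mRNA, fell by 0.30, 0.22 and 0.18 on the log2 scale at 4, 8 and 12 h (edgeR adjusted p = 1.2e-05, 0.00059 and 0.0041), with no overlap between groups. EIF4A1, the other eIF4F helicase, was counted poorly: it held only 58 to 188 reads a library, and 2583 of its 5316 exon bases are shared with other genes of the same strand, where such reads are not assigned. It measured 7.69, 9.47 and 8.97 against 6.93, 5.12 and 5.84 CPM at 4 h and 7.26, 7.98 and 6.39 against 6.36, 5.26 and 5.56 CPM at 8 h. The 12 h libraries held 4.45, 5.10 and 5.09 against 3.34, 3.63 and 4.15 CPM, lower in every copanlisib library, with adjusted p = 0.00076, 0.035 and 0.047. Its 8 h call was lost without DMSO replicate 1 (adjusted p = 0.0938), DMSO replicate 2 (0.163), copanlisib replicate 2 (0.131) or copanlisib replicate 3 (0.0906). Its 12 h call was lost without DMSO replicate 2 (adjusted p = 0.121), DMSO replicate 3 (0.132), copanlisib replicate 1 (0.173) or copanlisib replicate 2 (0.103). DESeq2 (adjusted p = 0.0665), limma-voom (0.0604) and the replicate block (0.0578) also lost the 12 h call, and DESeq2 the 8 h call (0.0621). EIF4B and EIF4H encode RNA-binding helpers of the helicase and passed in opposite directions at 4 h: EIF4B rose (log2 fold change 0.16 ± 0.0422 SE, adjusted p = 0.0043) and EIF4H fell (log2 fold change -0.28 ± 0.0503 SE, adjusted p = 7.2e-05). With copanlisib replicate 3 alone these values were 0.053 (adjusted p = 0.471) and -0.13 (adjusted p = 0.061). EIF4B did not pass at 8 or 12 h (0.032 and 0.033), and EIF4H fell again at 8 h (-0.18, adjusted p = 0.0068; without DMSO replicate 1 (adjusted p = 0.0588)).

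All 3 subunits of eIF2 fell at 8 and 12 h, and EIF2S1 and EIF2S2 also at 4 h. Of all genes tested, 20.7%, 18.3% and 16.5% were lower at 4, 8 and 12 h. EIF2S1 (chr14:67359997-67386516) encodes the alpha subunit, whose phosphorylation by stress kinases slows initiation. It measured 170.2, 166 and 164 CPM in DMSO and 144, 139.5 and 112 CPM with copanlisib at 4 h, and 157, 157 and 152 against 98.6, 101 and 104 CPM at 8 h. At 12 h it measured 150.4, 145 and 145 against 109, 109 and 100.2 CPM. No group overlapped its control, and at 4 h replicate 3 was the lowest copanlisib library. The log2 fold changes were -0.34 ± 0.0614, -0.62 ± 0.0619 and -0.47 ± 0.0625 (SE; edgeR adjusted p = 8.9e-05, 1.4e-08 and 1.8e-06), and -0.57 (adjusted p = 1.9e-11) at 4 h with replicate 3 alone, a value 1.68 times as large on the log2 scale.

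EIF2S2, the beta subunit, measured 229.6, 210.2 and 216 CPM in DMSO and 211, 207 and 163 CPM with copanlisib at 4 h, where the highest copanlisib library was just above the lowest DMSO library. At 8 h it measured 198, 206 and 210.2 against 141, 142 and 146 CPM and at 12 h 177, 166 and 184 against 134, 134 and 119 CPM, with no overlap. It fell by 0.17, 0.52 and 0.45 on the log2 scale (edgeR adjusted p = 0.043, 1.2e-06 and 1.4e-05). The 4 h call was lost without DMSO replicate 1 (adjusted p = 0.163), DMSO replicate 3 (0.0772) or copanlisib replicate 3 (0.244), and the value was -0.42 (adjusted p = 3.08e-07) with copanlisib replicate 3 alone. EIF2S3, the gamma subunit that binds GTP and the tRNA, measured 354, 357 and 347 against 366, 373 and 343 CPM at 4 h and 349.8, 349 and 349.7 against 314, 316 and 318 CPM at 8 h. The 12 h values were 362, 346 and 355 against 332, 316 and 313 CPM. It overlapped at 4 h and fell at 8 h (log2 fold change -0.15 ± 0.0396 SE, adjusted p = 0.0053) and 12 h (log2 fold change -0.15 ± 0.0398 SE, adjusted p = 0.0062).

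**Figure D3:**
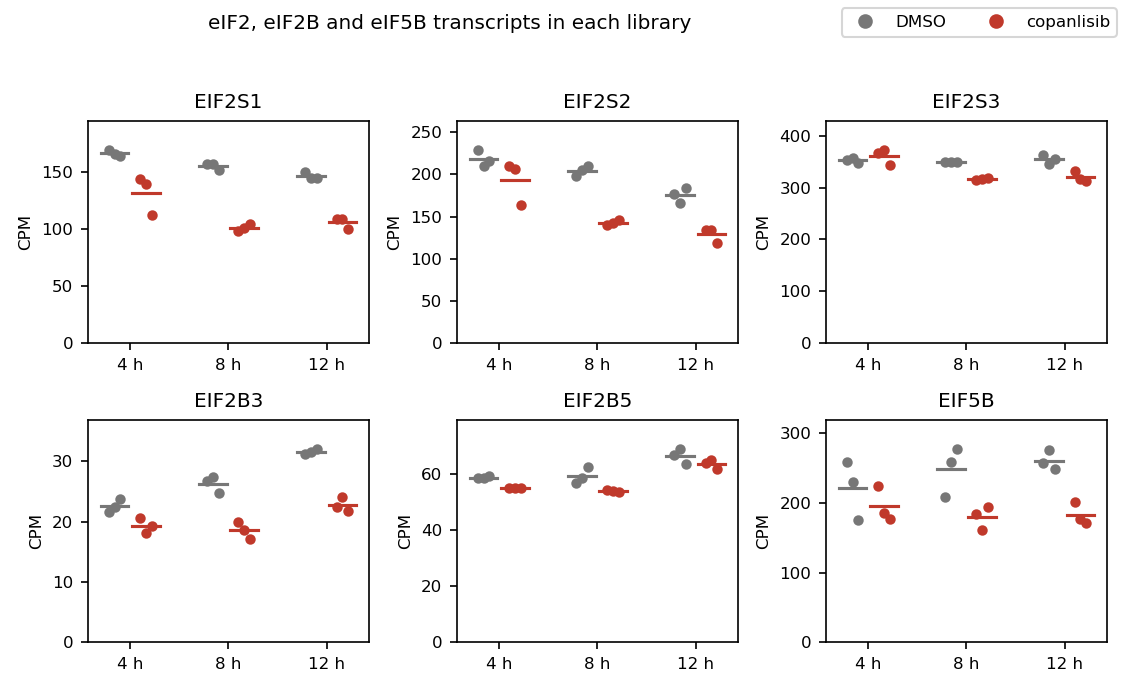
CPM of EIF2S1, EIF2S2, EIF2S3, EIF2B3, EIF2B5 and EIF5B in each of the 18 libraries, with a bar at the mean of each group of 3 (grey DMSO, red copanlisib). EIF2S1 and EIF2B3 lie lower in every copanlisib library than in the DMSO libraries of the same time, and at 4 h EIF2S1 and EIF2S2 are lowest in copanlisib replicate 3.

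The 5 subunits of eIF2B, the exchange factor for eIF2, included 4 that fell at 4 h, 4 at 8 h and 3 at 12 h, and none that rose. These are 80%, 80% and 60% lower, beside 20.7%, 18.3% and 16.5% of all genes tested. EIF2B3, a catalytic subcomplex subunit, measured 21.5, 22.4 and 23.8 CPM in DMSO and 20.5, 18.03 and 19.2 CPM with copanlisib at 4 h, and 26.7, 27.4 and 24.7 against 19.95, 18.5 and 17.1 CPM at 8 h. After 12 h it measured 31.2, 31.5 and 32.04 against 22.4, 24.1 and 21.8 CPM. Its groups did not overlap, and it fell by 0.23, 0.51 and 0.47 on the log2 scale (edgeR adjusted p = 0.015, 3.3e-06 and 8.1e-06). The 4 h call was lost without DMSO replicate 3 (adjusted p = 0.0845) or copanlisib replicate 2 (0.0768). EIF2B5, which encodes the catalytic subunit, measured 58.8, 58.6 and 59.3 against 55.2, 55.3 and 55.1 CPM at 4 h and 56.9, 58.6 and 62.7 against 54.4, 54.1 and 53.7 CPM at 8 h. The 12 h libraries held 67.1, 69.1 and 63.8 against 64.2, 65.02 and 61.98 CPM. It passed only at 8 h (log2 fold change -0.13 ± 0.0499 SE, adjusted p = 0.044), a call lost without DMSO replicate 2 (adjusted p = 0.0731), DMSO replicate 3 (0.218), copanlisib replicate 1 (0.0821), copanlisib replicate 2 (0.104) or copanlisib replicate 3 (0.0888), with DESeq2 (0.0581) and with the replicate block (0.0523). EIF2B2, a regulatory subunit, fell at each time, by 0.32, 0.23 and 0.14 on the log2 scale (edgeR adjusted p = 7.7e-06, 0.00036 and 0.031), and its 12 h call was lost without DMSO replicate 1 (adjusted p = 0.133), DMSO replicate 3 (0.0588), copanlisib replicate 2 (0.0663) or copanlisib replicate 3 (0.108). EIF2B1, also regulatory, fell by 0.12, 0.21 and 0.13 (edgeR adjusted p = 0.047, 0.0016 and 0.043). Its 4 h call was lost without DMSO replicate 1 (adjusted p = 0.162), DMSO replicate 2 (0.0897), DMSO replicate 3 (0.0533), copanlisib replicate 2 (0.135) or copanlisib replicate 3 (0.0749), and with the replicate block (0.0524). Its 12 h call was lost without DMSO replicate 1 (adjusted p = 0.147), DMSO replicate 2 (0.0612), DMSO replicate 3 (0.0801), copanlisib replicate 1 (0.0555), copanlisib replicate 2 (0.0779) or copanlisib replicate 3 (0.151). EIF2B4, another regulatory subunit, passed at 4 h only (log2 fold change -0.23 ± 0.0678 SE, adjusted p = 0.0097), not without copanlisib replicate 2 (adjusted p = 0.095), and was -0.07 (adjusted p = 0.596) with copanlisib replicate 3 alone.

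The 13 subunits of eIF3, the large scaffold on the small ribosomal subunit, split in direction. At 4, 8 and 12 h, 5, 6 and 5 of them fell and 2, 0 and 3 rose. These are 38.5%, 46.2% and 38.5% lower, beside 20.7%, 18.3% and 16.5% of all genes tested. Higher were 15.4%, 0% and 23.1%, beside 17.7%, 14.8% and 13.8% of all genes. EIF3J (chr15:44537057-44563029), a loosely bound subunit near the mRNA entry channel, measured 189, 168 and 172 CPM in DMSO and 146, 139 and 114 CPM with copanlisib at 4 h, and 127, 133 and 136 against 86.5, 92.7 and 91.8 CPM at 8 h. At 12 h it measured 119.5, 115 and 119 against 89.5, 93.2 and 90.1 CPM. The groups did not overlap, with log2 fold changes of -0.41 ± 0.0632, -0.54 ± 0.0645 and -0.38 ± 0.0654 (SE; edgeR adjusted p = 1.3e-05, 2.3e-07 and 6.5e-05), and -0.62 (adjusted p = 4.39e-12) at 4 h with copanlisib replicate 3 alone, 1.54 times as large. EIF3B, which with EIF3A forms the core that other subunits build on, fell by 0.42, 0.51 and 0.38 on the log2 scale (edgeR adjusted p = 1.9e-08, 8.3e-10 and 1.9e-07), with no overlap at any time. EIF3A itself did not pass at 4 h (-0.07, adjusted p = 0.29; -0.20 (adjusted p = 0.00493) with copanlisib replicate 3 alone) and fell at 8 h (-0.29, adjusted p = 6.3e-05) and 12 h (-0.24, adjusted p = 0.00069).

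EIF3K, a small subunit, measured 246, 229 and 254 against 219, 236 and 246 CPM at 4 h and 265, 259.9 and 255 against 268, 263 and 253 CPM at 8 h. The 12 h values were 297, 278 and 296 against 311, 299 and 285 CPM. Its groups overlapped at each time, and its log2 fold changes were -0.057, 0.0089 and 0.039 (adjusted p = 0.38, 0.91 and 0.6). EIF3L, its partner subunit, rose at 4 h (log2 fold change 0.14 ± 0.0422 SE, adjusted p = 0.01) and 12 h (log2 fold change 0.15 ± 0.0425 SE, adjusted p = 0.0093). Those calls were lost without copanlisib replicate 2 at 4 h (adjusted p = 0.086) and without copanlisib replicate 1 at 12 h (adjusted p = 0.061). Of the 4296 exon bases of EIF3L, 1767 are shared with another gene of the same strand, where such reads are not assigned. EIF3L was 0.078 (adjusted p = 0.292) at 4 h with copanlisib replicate 3 alone. EIF3F, a subunit of the core octamer, rose at 12 h from 192, 190.2 and 209 to 228, 217 and 219.6 CPM (log2 fold change 0.17 ± 0.0455 SE, adjusted p = 0.0053). EIF3E, also in the octamer, rose at 4 h (log2 fold change 0.19 ± 0.0551 SE, adjusted p = 0.0071), where copanlisib replicates 1 and 2 stood high and replicate 3 overlapped DMSO. The call was lost without copanlisib replicate 1 (adjusted p = 0.0685) or copanlisib replicate 2 (0.0655), and with replicate 3 alone the value was -0.021 (adjusted p = 0.812). EIF3M, an octamer subunit, fell at each time, by 0.11, 0.31 and 0.12 (edgeR adjusted p = 0.044, 3.8e-06 and 0.036). Its 4 h call was lost without DMSO replicate 1 (adjusted p = 0.186), DMSO replicate 3 (0.0704) or copanlisib replicate 3 (0.189), and its 12 h call without DMSO replicate 1 (adjusted p = 0.106), DMSO replicate 3 (0.118), copanlisib replicate 1 (0.0892), copanlisib replicate 2 (0.0747) or copanlisib replicate 3 (0.0752). The 4 h value was -0.23 (adjusted p = 0.000317) with copanlisib replicate 3 alone. EIF3C held 27 to 45 reads a library, and reads that also match its near-identical copy EIF3CL are not counted. Its 4 h call (-0.67, adjusted p = 0.01) was lost without DMSO replicate 1 (adjusted p = 0.0683) or copanlisib replicate 1 (0.0633), and was -0.38 (adjusted p = 0.373) with copanlisib replicate 3 alone. EIF3D, a cap-binding subunit of eIF3, fell at 8 h (-0.17, adjusted p = 0.00069) and 12 h (-0.12, adjusted p = 0.014), the latter not without DMSO replicate 3 (adjusted p = 0.0502), copanlisib replicate 2 (0.0538) or copanlisib replicate 3 (0.0515). EIF3I fell at 4 h (-0.17, adjusted p = 0.0025; -0.13 (adjusted p = 0.0713) with copanlisib replicate 3 alone) and 8 h (-0.14, adjusted p = 0.018), the latter not without DMSO replicate 1 (adjusted p = 0.112), DMSO replicate 3 (0.0625) or copanlisib replicate 3 (0.0694). EIF3H, an octamer subunit, passed at no time (adjusted p = 0.057, 0.8 and 0.14).

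**Figure D4:**
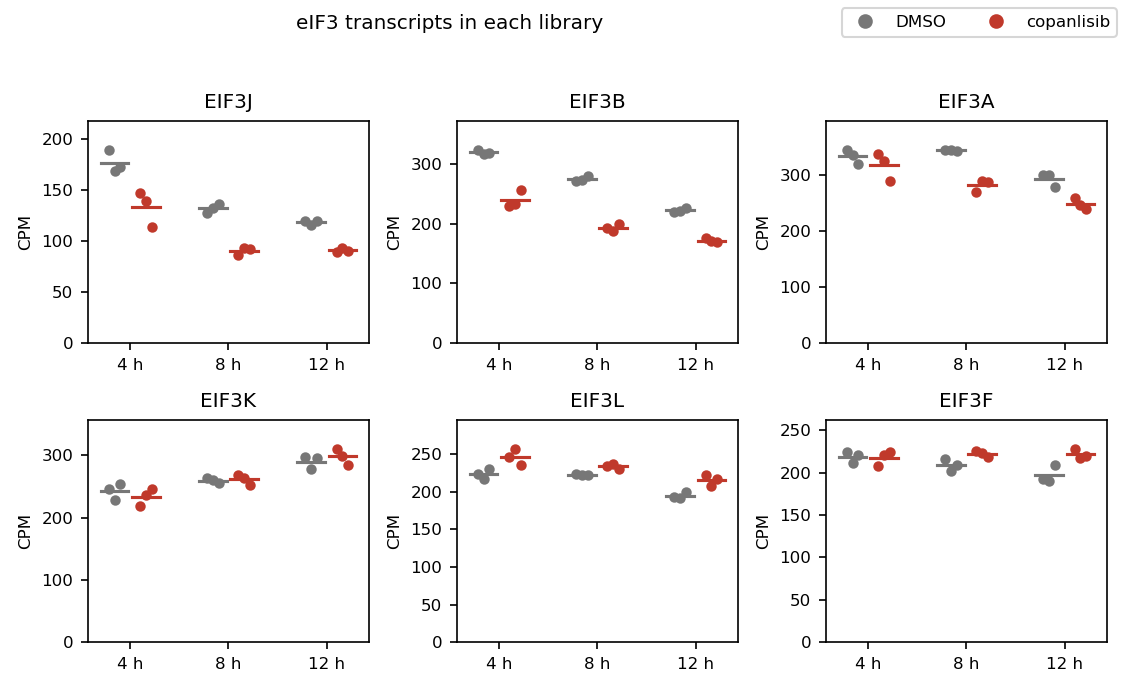
CPM of EIF3J, EIF3B, EIF3A, EIF3K, EIF3L and EIF3F in each of the 18 libraries, with a bar at the mean of each group of 3 (grey DMSO, red copanlisib). EIF3J and EIF3B are lower in every copanlisib library of each time, while EIF3K overlaps at each time.

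Of the 7 start codon and subunit joining factors, 2 fell and 1 rose at 4 h, 4 fell at 8 h and 2 fell at 12 h. These are 28.6%, 57.1% and 28.6% lower, beside 20.7%, 18.3% and 16.5% of all genes tested. Higher were 14.3% at 4 h and 0% at 8 and 12 h, beside 17.7%, 14.8% and 13.8% of all genes. EIF5B, the GTPase that joins the large subunit, measured 258, 229.95 and 176 CPM in DMSO against 225, 186 and 177 CPM with copanlisib at 4 h, with overlap. It fell at 8 h, from 208, 259 and 278 to 184, 162 and 195 CPM (log2 fold change -0.46 ± 0.107 SE, adjusted p = 0.0015), and at 12 h, from 257, 275 and 248 to 202, 176 and 172 CPM (log2 fold change -0.50 ± 0.108 SE, adjusted p = 0.00067). With copanlisib replicate 3 alone, its 4 h value was -0.31 (adjusted p = 0.0272). EIF1AX, which encodes eIF1A, a factor that helps scanning, also fell at 8 h (-0.39, adjusted p = 2.3e-05) and 12 h (-0.29, adjusted p = 0.0009), and was -0.23 (adjusted p = 0.00793) at 4 h with replicate 3 alone. EIF5, the partner that triggers GTP hydrolysis on eIF2, fell at 4 h only (log2 fold change -0.17 ± 0.0457 SE, adjusted p = 0.0055), with log2 fold changes of -0.11 and -0.11 at 8 and 12 h (adjusted p = 0.071 and 0.068). An edgeR fit of only the 4 h libraries lost the 4 h call of EIF5 (adjusted p = 0.0631). With replicate 3 alone its 4 h value was -0.30 (adjusted p = 4.42e-06).

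EIF1, which guards the accuracy of start codon choice, measured 884, 841 and 893 CPM in DMSO and 759, 787 and 760.3 CPM with copanlisib at 4 h (log2 fold change -0.18 ± 0.0403 SE, adjusted p = 0.00078). It measured 793, 741 and 746 against 692, 725 and 692 CPM at 8 h (log2 fold change -0.11 ± 0.0404 SE, adjusted p = 0.033) and 616, 614 and 647 against 596, 598 and 573 CPM at 12 h (adjusted p = 0.11). The copanlisib libraries were the lower ones at each time, and the 8 h call was lost without DMSO replicate 1 (adjusted p = 0.242), copanlisib replicate 1 (0.11) or copanlisib replicate 3 (0.089). Its paralog EIF1B measured 74.4, 69.7 and 70.04 against 79.8, 75.98 and 73.2 CPM at 4 h and 61.1, 62.6 and 56.7 against 59.7, 61.9 and 61.7 CPM at 8 h. After 12 h it measured 62.4, 55.3 and 58.99 against 61.7, 69.8 and 60.8 CPM, with overlap at each time and adjusted p = 0.19, 0.82 and 0.14. EIF2D, which delivers initiator tRNA without GTP, measured 108, 108 and 106 against 109, 111 and 111 CPM at 4 h and 109.5, 107 and 113 against 118, 114 and 111 CPM at 8 h. At 12 h it measured 120.4, 114 and 115 against 124, 117 and 119.9 CPM. Its log2 fold changes were 0.037, 0.057 and 0.044 (adjusted p = 0.54, 0.34 and 0.49), with overlap at 8 and 12 h and the copanlisib libraries higher at 4 h. EIF2A, an alternative initiator tRNA factor, measured 135, 128 and 128 CPM in DMSO and 157, 156 and 127 CPM with copanlisib at 4 h. Copanlisib replicates 1 and 2 stood above every DMSO library, and replicate 3 lay just below every DMSO library. The rise at 4 h (log2 fold change 0.17 ± 0.0571 SE, adjusted p = 0.021) was lost without DMSO replicate 2 (adjusted p = 0.0536), DMSO replicate 3 (0.0742), copanlisib replicate 1 (0.149) or copanlisib replicate 2 (0.143), and was -0.034 (adjusted p = 0.72) with replicate 3 alone. At 8 h EIF2A fell, from 122, 126 and 124 to 107, 107 and 109.8 CPM (log2 fold change -0.20 ± 0.0576 SE, adjusted p = 0.0098), which made it the only member called in both directions.

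EIF5A (chr17:7306999-7312463), the hypusine-bearing factor that relieves stalled ribosomes, measured 743, 655 and 718 CPM in DMSO and 481, 499.9 and 561 CPM with copanlisib at 4 h. The values were 763, 733 and 731 against 592, 596 and 578 CPM at 8 h. The 12 h libraries held 770.4, 777 and 829 against 637, 602 and 581 CPM. No copanlisib library overlapped the DMSO libraries, and the log2 fold changes were -0.46 ± 0.0527, -0.33 ± 0.0524 and -0.39 ± 0.0525 (SE; edgeR adjusted p = 1.4e-07, 1.5e-05 and 2.4e-06). Its paralog EIF5A2 held 21 to 50 reads a library and measured 2.23, 2.42 and 2.72 against 1.44, 2.06 and 1.81 CPM at 8 h. Its estimates of -0.38, -0.45 and -0.35 at 4, 8 and 12 h had adjusted p = 0.14, 0.071 and 0.18. EIF6, which keeps the large subunit from joining too early, fell at 4 h (log2 fold change -0.36 ± 0.0748 SE, adjusted p = 0.00046) and 12 h (log2 fold change -0.25 ± 0.0738 SE, adjusted p = 0.012). At 4 h its copanlisib libraries held 53.1, 60.6 and 73.2 CPM against 77.2, 76.2 and 85.5 CPM in DMSO, and with replicate 3 alone the value was -0.12 (adjusted p = 0.212). The 12 h call was lost without DMSO replicate 3 (adjusted p = 0.0795) or copanlisib replicate 3 (0.0539).

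**Figure D5:**
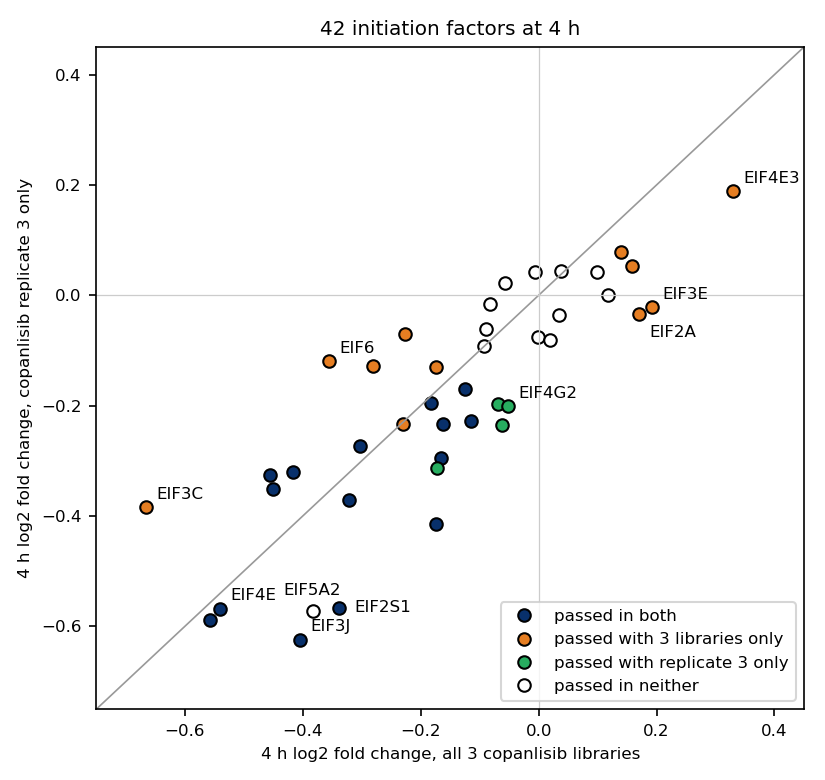
Log2 fold change at 4 h of the 42 transcripts with all 3 copanlisib libraries (x axis) and with copanlisib replicate 3 as the only one (y axis), coloured by which fit passed the test. EIF4E lies close to the line of equal values, EIF2S1 and EIF3J lie below it, and EIF2A and EIF3E change sign.

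A test of whether the copanlisib effect itself differed between 12 h and 4 h called 3 members, 1 with a higher and 2 with a lower effect at 12 h, beside 16.7% of all genes tested (8.98% higher and 7.69% lower). The number called ran from 0 to 16 when each library was left out in turn, with 16 without copanlisib replicate 3 of 4 h. That fit kept only copanlisib replicates 1 and 2 at 4 h. Its share of all genes called is not given here, so the 16 is not read as particular to the members. The effect on EIF2A was lower by 0.28 at 12 h than at 4 h, that on EIF2S3 lower by 0.18, and that on EIF3G, an RNA-binding subunit of eIF3, higher by 0.22 (log2; edgeR adjusted p = 0.021, 0.028 and 0.021). EIF3G measured 163, 158 and 168 CPM in DMSO and 147, 153 and 161 CPM with copanlisib at 4 h, and 154, 153 and 159.9 against 171, 172 and 171 CPM at 12 h, where the copanlisib libraries were the higher ones. Its rise at 12 h (0.14, adjusted p = 0.025) was lost without DMSO replicate 1 (adjusted p = 0.088), DMSO replicate 2 (0.0867), copanlisib replicate 1 (0.0598), copanlisib replicate 2 (0.0677) or copanlisib replicate 3 (0.0634). With copanlisib replicate 3 as the only copanlisib library of 4 h, the differences were -0.076, -0.11 and 0.15 (adjusted p = 0.61, 0.31 and 0.21). The call of EIF2A was also lost without DMSO 12 h replicate 1 (adjusted p = 0.0616), DMSO 4 h replicate 3 (0.0546), copanlisib 12 h replicate 3 (0.0543), copanlisib 4 h replicate 1 (0.0656) or copanlisib 4 h replicate 2 (0.0574). That of EIF2S3 was lost without DMSO 12 h replicate 1 (adjusted p = 0.0851), DMSO 4 h replicate 3 (0.0753), copanlisib 12 h replicate 2 (0.0652), copanlisib 12 h replicate 3 (0.0735), copanlisib 4 h replicate 1 (0.0673) or copanlisib 4 h replicate 2 (0.0664). That of EIF3G was lost without DMSO 12 h replicate 1 (adjusted p = 0.0585), DMSO 12 h replicate 2 (0.0666), DMSO 4 h replicate 3 (0.0706), copanlisib 4 h replicate 1 (0.0613) or copanlisib 4 h replicate 2 (0.0654). With no filter on low counts EIF2S3 and EIF3G lost it too (adjusted p = 0.0792 and 0.0609), as did EIF3G in counts without strand (0.069). Between 12 h and 8 h edgeR called 0 members, beside 0.0558% of all genes tested, and DESeq2 and limma-voom called 0 as well. At an unadjusted p under 0.05, edgeR, DESeq2 and limma-voom had 4, 4 and 5 of the 42 members. Beside these stand 1196, 902 and 1231 of the 16122 genes tested.

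In the DMSO libraries alone, the members moved with culture time. From 4 h to 12 h, 22 fell and 7 rose, beside 48.6% of all genes tested that changed, 25.4% that fell and 23.2% that rose. The 12 h libraries lay wholly below those of 4 h for 22 members and wholly above for 9, beside 30% and 27.8% of all genes. EIF3J fell by 0.58, EIF5 by 0.54, EIF3B by 0.52 and EIF1 by 0.48 on the log2 scale (edgeR adjusted p = 3.3e-08, 4e-10, 1.8e-10 and 3e-10). EIF4G3 rose by 0.52, EIF2B3 by 0.48 and EIF4E3 by 0.30 (edgeR adjusted p = 5.3e-08, 3e-06 and 0.00029). The DMSO libraries of 4 and 12 h are also the controls of the drug comparisons.

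Levels per length placed EIF5A and EIF1 at the top. Over the 9 DMSO libraries, in CPM per 1000 bases of exon, EIF5A held 265 and EIF1 held 208, and the next, EIF3I, a WD-repeat subunit of eIF3, held 169. EIF4E held 2.34 ± 0.163 (SD, n = 9) and EIF4E3 3.78 ± 0.374 on the same scale, both with long transcripts. Per 1000 bases of the longest transcript, EIF5A (494) and EIF1 (323) stayed at the top, but EIF3E (235) came before EIF3I (200). The summed CPM of the 42, which is not corrected for length, was 10187 ± 212 (SD, n = 3) in DMSO and 9460 ± 313 with copanlisib at 4 h. It was 9887 ± 11.8 against 8680 ± 69.4 at 8 h, and 9149 ± 109 against 8363 ± 190 at 12 h. Every copanlisib library was below every DMSO library of its time in this sum.

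The sequence before a RefSeq start of EIF4E, EIF4G1, EIF2B3 and EIF4A3, each lower at all 3 times, holds the hexamer CACGTG. It is the E-box core that MYC family and related proteins are known to bind. EIF3F and EIF4B, which were lower at no time, hold it too and are shown for contrast. By the GENCODE 29 positions, the stretches of EIF4E, EIF3F and EIF4B and the EIF4G1 stretch nearer the start lie inside the gene. The sequences below are read 5′ to 3′ from RefSeq windows (GRCh38.p14), with the hexamer in capitals, and stretches that fall in an exon of a longer GENCODE 29 transcript are cut to 30 bases.
EIF4E, chr4:98929341-98929370 (- strand, motif 225 bases before the start): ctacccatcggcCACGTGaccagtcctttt
EIF4E, chr4:98929188-98929217 (- strand, motif 72 bases before the start): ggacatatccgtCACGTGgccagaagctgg
EIF4G1, chr3:184314435-184314494 (+ strand, motif 144 bases before the start): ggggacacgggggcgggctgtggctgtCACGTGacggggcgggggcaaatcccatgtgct
EIF4G1, chr3:184314527-184314556 (+ strand, motif 67 bases before the start): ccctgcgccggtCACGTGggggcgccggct
EIF2B3, chr1:44986742-44986801 (- strand, motif 179 bases before the start): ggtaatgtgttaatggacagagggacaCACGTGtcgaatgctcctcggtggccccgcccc
EIF4A3, chr17:80147217-80147276 (- strand, motif 121 bases before the start): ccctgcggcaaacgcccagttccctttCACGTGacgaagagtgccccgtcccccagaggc
EIF3F, chr11:7987257-7987286 (+ strand, motif 68 bases before the start): aaagctctagctCACGTGgtgtatattcag
EIF4B, chr12:53006422-53006451 (+ strand, motif 22 bases before the start): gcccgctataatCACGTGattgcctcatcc

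A search of 300 bases around the first listed start of each gene (250 before, 50 after) found CACGTG in 10 of the 36 members that had a window, 27.8%. The hexamer is its own reverse complement, so a single search covers both strands. It was in 7.43% of the windows of all 27294 listed genes. Of the protein-coding ones 8.88% held it, and of the 11169 tested genes 10.2%. Of the 10 with it, 4 fell at all 3 times and 5 fell at none, and of the 26 without it, 9 fell at all 3 times and 3 at none. A match describes the letters of the window and not a bound site.

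Genes around the initiation factors were counted from 5 further lists. Of 16 4E-BP, poly(A)-binding and eIF4F partner genes, 6, 5 and 4 fell and 4, 4 and 2 rose at 4, 8 and 12 h. These are 37.5%, 31.2% and 25% lower and 25%, 25% and 12.5% higher, beside 20.7%, 18.3% and 16.5% lower and 17.7%, 14.8% and 13.8% higher of all genes, the same for each list that follows. With replicate 3 alone, 3 of the 16 fell and 2 rose at 4 h. EIF4EBP1, the inhibitor that holds eIF4E when mTORC1 is off, measured 32.5, 30.3 and 32.8 CPM in DMSO and 21.5, 22.9 and 26.4 CPM with copanlisib at 4 h, and 29.9, 29.7 and 28.9 against 22.3, 21.01 and 22.2 CPM at 8 h. At 12 h it measured 32.4, 29.3 and 34.2 against 21.4, 20.3 and 19.8 CPM. It was lower in every copanlisib library, with log2 fold changes of -0.43 ± 0.0731, -0.43 ± 0.073 and -0.64 ± 0.0747 (SE; edgeR adjusted p = 3.5e-05, 3.7e-05 and 2.2e-07). LARP1, which binds the mRNAs of ribosomal proteins, fell by 0.35, 0.45 and 0.37, and DDX3X, a helicase of structured mRNAs, by 0.34, 0.41 and 0.33. PAIP2, an inhibitor of poly(A)-binding protein, rose by 0.32, 0.22 and 0.22; its 12 h call was lost without DMSO replicate 2 (adjusted p = 0.0571) or copanlisib replicate 1 (0.0594), and at 4 h copanlisib replicate 3 alone gave 0.12 (adjusted p = 0.167). PDCD4, an inhibitor of eIF4A, rose at 4 h (0.33) and not at 8 or 12 h (-0.0012 and 0.05). PABPC1, the main poly(A)-binding protein, rose at 4 h (0.15, adjusted p = 0.0067), not without copanlisib replicate 2 (adjusted p = 0.0596) nor with copanlisib replicate 3 alone (0.04, adjusted p = 0.618) or in a fit of only the 4 h libraries (0.108), and was -0.069 and -0.04 at 8 and 12 h.

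Of 8 genes for eIF2 kinases and phosphatase subunits, 2, 3 and 2 fell (25%, 37.5% and 25%) and 3, 0 and 0 rose (37.5% at 4 h) at 4, 8 and 12 h. The 3 that rose at 4 h encode the kinases EIF2AK1, EIF2AK2 and EIF2AK3, which phosphorylate eIF2 alpha. Their values with copanlisib replicate 3 alone were 0.11, 0.14 and 0.10 (adjusted p = 0.114, 0.0589 and 0.302), none past the threshold. Both phosphatase subunits fell at each time: PPP1R15A by 0.35, 0.19 and 0.31, with the 8 h call lost without DMSO replicate 1 (adjusted p = 0.0627), and PPP1R15B by 0.38, 0.36 and 0.35. Of 9 other initiation and recycling genes, 5, 7 and 5 fell (55.6%, 77.8% and 55.6%) and none rose, and 5 also fell at 4 h with replicate 3 alone. ABCE1, which splits ribosomes after termination, fell by 0.44, 0.83 and 0.64. BZW2, a relative of eIF5, fell by 0.53, 0.82 and 1.03, and its 4 h call was lost without DMSO replicate 1 (adjusted p = 0.0543) or copanlisib replicate 3 (0.0582). EIF1AD, a gene related in sequence to EIF1AX, fell by 0.19, 0.23 and 0.23, and its 4 h call was lost without copanlisib replicate 1 (adjusted p = 0.0799) and with copanlisib replicate 3 alone (-0.13, adjusted p = 0.227), in a fit of only the 4 h libraries (0.0894) and with no filter on low counts (0.0725).

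Downstream of initiation, 2 of 3 termination genes fell at each time (66.7%). ETF1, the release factor that reads stop codons, fell by 0.68, 0.75 and 0.54, and its GTPase partner GSPT1 by 0.44, 0.75 and 0.56 (edgeR adjusted p at 12 h = 6.2e-09 and 3.2e-09). Among 6 tested elongation genes, 2, 1 and 1 fell (33.3%, 16.7% and 16.7%) and 0, 1 and 2 rose (16.7% at 8 h and 33.3% at 12 h). EEF1D, a subunit of the exchange factor for eEF1A, fell at 4 h by 0.33, and was -0.10 with copanlisib replicate 3 alone (adjusted p = 0.163). EEF1E1, an auxiliary protein of the tRNA synthetase complex, fell by 0.41, 0.81 and 0.54, and a fit of only the 4 h libraries lost its 4 h call (adjusted p = 0.0574). EEF2, the translocase, was -0.031 at 4 h (adjusted p = 0.67) and rose at 8 h (log2 fold change 0.17 ± 0.0506 SE, adjusted p = 0.012) and 12 h (log2 fold change 0.16 ± 0.0506 SE, adjusted p = 0.019). Its 8 h call was lost without DMSO replicate 2 (adjusted p = 0.0564) or copanlisib replicate 3 (0.053), and its 12 h call without DMSO replicate 1 (adjusted p = 0.0722), DMSO replicate 2 (0.056), copanlisib replicate 1 (0.123) or copanlisib replicate 3 (0.0512). EEF1G was not tested, as 99.93% of its exon bases are shared with another gene and no read was assigned to it.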

How the data were processed

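RNA libraries of HAIR-M cells, 18 in all and 3 in each of 6 groups, were counted per gene. Per the submitters' processing notes the tools were CASAVA 1.7 and STAR 2.5.2b with hg38; the gene annotation behind the counts is not stated there. The deposited counts are whole reads per gene in 3 columns, without strand and for each strand. Column 4 was used, since it held at least 94.3% of the reads assigned to a strand; reads matching several places or genes were left out of the authors' counts. The labels give no strand setting for the kit.

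From these counts, CPM scaled by TMM and the edgeR 4.0.16 quasi-likelihood test (R 4.3.3) were computed. The test was two-sided, with filterByExpr, 1 mean per group and all 18 libraries in 1 fit. Adjustment was by Benjamini-Hochberg over 16122 genes of 35239 with a read, at a threshold of 0.05. A check on simulated counts gave all libraries the same spread and changed genes only in copanlisib 8 h. It held no deviating libraries, so it does not bear on calls that use the 4 h copanlisib libraries. Symbols came from a table of gene names (56321 of 60483 identifiers) and GENCODE 29 (432), and 3730 stayed unnamed. Positions and exon lengths are those of GENCODE 29, and levels per length were also computed with the longest transcript. The alternatives were DESeq2 1.42.0 and its size factors, limma-voom 3.58.1, no low-count filter, counts without strand, a replicate block, a threshold of 0.01, separate fits per time, each library left out, and copanlisib replicate 3 as the only copanlisib library of 4 h. The members and lists were chosen with earlier results of these data known. All members may be named; values per library were given for those with the largest and smallest mean absolute log2 change over the 3 times in each complex, for paralogs and for members whose effect differed between times, and at most 4 genes per further list. Rows for unmapped, multi-mapped, unassigned and ambiguous reads stayed out of library sizes and tests: multi-mapped reads were 9.21% to 10.1% of reads and ambiguous reads 2.04% to 2.45%.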

Additional observations from a re-analysis of the deposited data

Results flagged for a closer look

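The copanlisib effect on 3 initiation factors differed between 12 h and 4 h by a test of the difference itself (edgeR, adjusted over all genes tested). They are 7.14% of the 42 members, beside 16.7% of all genes tested. Each of the 3 calls was lost in at least 1 fit that left out a single library. EIF2A differed by -0.28 on the log2 scale, with 157, 156 and 127 CPM under copanlisib at 4 h against 135, 128 and 128 CPM in DMSO. EIF2S3 differed by -0.18, with 332, 316 and 313 CPM under copanlisib at 12 h against 362, 346 and 355 CPM in DMSO. EIF3G differed by 0.22, with 171, 172 and 171 CPM under copanlisib at 12 h against 154, 153 and 159.9 CPM in DMSO. None of the 3 passed when copanlisib replicate 3 was the only copanlisib library of 4 h (adjusted p = 0.61, 0.31 and 0.21). The part of the low mapping of copanlisib replicates 1 and 2 at 4 h in these differences was not tested.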

How the results depend on the processing

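The counts of called members were within 1.5 times the reported ones under the alternatives run, with these exceptions. At 4 h, a fit of only the 6 libraries of that time called 14 members (1 higher, 13 lower) in place of 26. The share of all genes called in that fit is not given here, so the drop is not read as particular to the members. For the difference between 12 h and 4 h, 3 members became 5 with DESeq2, beside 2561 of the 16122 genes tested. At an adjusted p under 0.01 they became 0. That count also moved with copanlisib replicate 3 as the only copanlisib library of 4 h. Leaving out each library in turn gave 20 to 26 members at 4 h, 22 to 26 at 8 h, 19 to 22 at 12 h, 0 to 16 for 12 h minus 4 h, 0 to 0 for 12 h minus 8 h and 23 to 28 for DMSO 12 h against 4 h. The 16 came without copanlisib replicate 3 at 4 h, and a 0 without DMSO replicate 3, copanlisib replicate 1 or copanlisib replicate 2 of 4 h, or DMSO replicate 1 of 12 h. Without DMSO replicate 1 of 4 h it was 6, and without copanlisib replicate 3 of 12 h it was 1. EIF2A and EIF3E turned at 4 h with copanlisib replicate 3 alone, to -0.034 and -0.021. Of the 26, 27 and 25 members called at 4, 8 and 12 h, 16, 8 and 9 lost the call under at least 1 alternative run, the threshold of 0.01 included. The causes were not tested.

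Of the 14 members lower at all 3 times, 7 kept every call under each alternative other than the threshold of 0.01, leaving out each library included. Same-numbered libraries of 1 time correlated from -0.191 to 0.393 in their deviations, 2 of 9 pairs over 0.1, and 7 of 18 libraries correlated best with their own number. No consistent pairing by number was seen, but with 3 libraries a group these correlations cannot exclude one. With the replicate block, 26, 26, 25, 4, 0 and 29 members were called, against 26, 27, 25, 3, 0 and 29 without it. Among members called at 4, 8 or 12 h, it lost EIF2B1 at 4 h, EIF2B5 at 8 h and EIF4A1 at 12 h, and no other call. Depth limits EIF3C, EIF4A1 and EIF5A2, with at most 45, 188 and 50 reads a library.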
